A study of Mus musculus with 2 samples.

Results

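The calponins and transgelins are a family of small actin-binding proteins, represented on the arrays by the genes Cnn1, Cnn2, Cnn3, Tagln, Tagln2 and Tagln3. Their probes were taken as all non-control probes carrying one of these 6 gene names in the scanner files, which gave 9 probes of 39429. All 9 probes and all 6 genes passed the filter on dim probes, so the family makes up 6 of the 21238 genes tested. RNA of ureters dissected from NMRI mouse embryos at E14.5 was compared on 2 arrays with 2 colours each. The channel labelled Smad4cKO (UM) held RNA of Tbx18(cre/+);Smad4(fl/fl) embryos, and the channel labelled control held RNA of Tbx18(+/+);Smad4(fl/+) embryos. In the mutants Cre made from the Tbx18 locus recombines the floxed Smad4 alleles in the mesenchyme of the ureter, and other cell types of the organ keep them. The controls also carry 1 floxed Smad4 allele but no Cre, so the Tbx18(cre) allele and the loss of Smad4 cannot be told apart. Array 1 held a female pair with the control in red (AlexaFluor647) and Smad4cKO in green (AlexaFluor555). Array 2 held a male pair with the dyes exchanged, so sex and dye orientation cannot be told apart either. How many embryos or litters entered each RNA is not in the labels, so p-values measure only the spread between these arrays, which may be technical.

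Calponins and transgelins share an amino-terminal calponin homology domain followed by calponin-like repeats, through which they bind actin filaments. Calponin 1 and transgelin (SM22 alpha) are abundant in differentiated smooth muscle and serve as its markers, while the other members are also made in many cells that do not contract. The smooth muscle genes of the family are textbook targets of serum response factor and its coactivator myocardin, which act at CArG boxes. In the ureter the inner layer of the mesenchyme forms the smooth muscle coat that drives peristalsis. SMAD4 is the common partner of the SMAD proteins that carry BMP and TGFB signals.

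Ratios are labelled Smad4cKO over labelled control throughout, on the log2 scale, so a positive value means brighter in the channel labelled Smad4cKO. This direction follows the dye labels and is opposite to the authors' deposited table as titled, where Cnn1 has signed folds of -3.16 and -4.84. The targeted gene did not settle the question. The Smad4 probe that stands for the gene gave -0.69 on array 1 and -0.14 on array 2, and its second probe gave -0.31 and -0.49. The mean of the Smad4 probe was -0.42 ± 0.17 (SE, n = 2) and did not pass limma's test (adjusted p = 1.00). Every SE and interval given here is limma's, which draws the spread of a gene toward that pooled over all genes. The labels do not name the deleted part of Smad4, and a probe outside that part need not show the deletion. The Tbx18 probe, whose gene carries Cre in the mutants, gave 0.07 and 0.81. Were the dyes in the labels wrong for each array, all signs given here would turn while sizes and tests would stay. Signals were ample for the family: all 36 readings (9 probes in 4 channels) were well above background, 0 were saturated, 0 spots were marked as outliers, and signal over local background lay between 32.8 and 1418.

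Of the 6 genes, Cnn1 alone stood out by size. By the dye labels Cnn1 was 3.76-fold brighter in the channel labelled Smad4cKO, while Tagln, the other smooth muscle marker of the family, was 1.23-fold brighter and did not pass any rule. The brightest probes of Cnn2, Tagln2 and Tagln3 had ratios below 1 on both arrays, though not under every processing. Cnn3 had opposite signs on the arrays.

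Cnn1 encodes calponin 1, which inhibits the actin-activated ATPase of smooth muscle myosin. Its probe, which covers chromosome 9, 21913058 to 21913117 (mm9, plus strand) and starts at base 1379 of the transcript, had a normalized intensity of 7962 in the channel labelled Smad4cKO and 2540 in the channel labelled control of the female pair. In the male pair the intensities were 10174 in the channel labelled Smad4cKO and 2260 in the channel labelled control. Both Smad4cKO readings lay above both control readings, and the 2 pairs differed in the same direction. The log2 ratio of Cnn1 was 1.65 on array 1 and 2.17 on array 2. Its mean was 1.91 ± 0.17 (SE, n = 2), and its 95% interval, 1.49 to 2.32, corresponds to 2.82-fold to 5.01-fold. Limma's adjusted p was 0.0767 (unadjusted p = 3.25e-05), which misses the threshold of 0.05 over all genes. By a second rule without a test, which asks for 1.5-fold or more in each pair and the same sign, Cnn1 was called brighter. Among all genes 0.49% (104 of 21238) were called brighter by this rule. Cnn1 ranked 3 of 21238 genes by mean ratio. It was also among the 0.0989% of genes at least 2-fold brighter in each pair and, with Myh11, one of 2 genes (0.00942%) at least 3-fold brighter. For the Cnn1 spot the authors' deposited p-values of the single-array ratios were 7.65e-11 on array 1 and 9.19e-15 on array 2, which describe each array and not the spread between embryos.

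The 250 bases upstream of the start of Cnn1 and of Cnn2 are shown because Cnn1 was called and Cnn2, the calponin with ratios nearest to 1 in both pairs, was not. The sequences are from RefSeq (GRCm38.p6, plus strand, 5′ to 3′), and capitals mark matches to any of 4 motifs searched on both strands.
Cnn1, chr9:22099003-22099252: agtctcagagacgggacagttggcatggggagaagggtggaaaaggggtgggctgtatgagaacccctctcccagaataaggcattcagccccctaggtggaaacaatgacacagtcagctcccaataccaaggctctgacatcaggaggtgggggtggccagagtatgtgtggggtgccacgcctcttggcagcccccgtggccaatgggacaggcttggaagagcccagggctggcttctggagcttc
Cnn2, chr10:79988350-79988599: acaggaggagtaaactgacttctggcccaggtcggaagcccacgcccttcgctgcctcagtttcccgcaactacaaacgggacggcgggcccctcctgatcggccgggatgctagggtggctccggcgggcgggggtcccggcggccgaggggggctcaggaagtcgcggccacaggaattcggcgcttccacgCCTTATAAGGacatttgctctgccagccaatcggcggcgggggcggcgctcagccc
The motifs were the CArG box bound by serum response factor, the SMAD motif GTCTAGAC, the GC-rich SMAD motif GGCGCC and the TEAD motif CATTCC. The first 3 read as the same motif on either strand, and no matches of different motifs overlapped in these windows. The Cnn2 window held 1 CArG box, whose first base lies 56 bases before the start, and the Cnn1 window held a match to none of the 4. Only exact matches were counted, so looser CArG boxes and any outside the 250 bases were not searched for. Of 32851 promoter windows of this length, 1.47% held a CArG box, 0.167% GTCTAGAC, 9.59% GGCGCC and 12.6% CATTCC. The windows also differed in composition, with 3 CpG dinucleotides (observed over expected 0.141) upstream of Cnn1 and 25 (0.856) upstream of Cnn2. The median over all windows was 0.373, and 21.1% of windows lay at or below the value of Cnn1. A window was given for 5 of the 6 genes, all but Tagln. The Cnn3 window had 28 CpG dinucleotides and 1 GGCGCC, the Tagln2 window 14 CpG dinucleotides, 2 GGCGCC and 2 CATTCC, and the Tagln3 window 10 CpG dinucleotides and a match to none of the motifs.

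Cnn2 encodes calponin 2, found in smooth muscle and in many migrating and non-muscle cells. Its brighter probe (chromosome 10, 79457785 to 79457844, mm9, plus strand) read 24898 in the channel labelled Smad4cKO and 27748 in the channel labelled control of the female pair. In the male pair it read 25691 in the channel labelled Smad4cKO and 26252 in the channel labelled control. The channels of a pair were close, and the log2 ratios were -0.16 on array 1 and -0.03 on array 2. Their mean was -0.09 ± 0.13 (SE, n = 2, limma adjusted p = 1.00), with a 95% interval of 0.747-fold to 1.17-fold. The second probe, 79457370 to 79457429, gave -0.03 and -0.22. The Cnn2 probes thus lay within 0.22 of 0 on both arrays.

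Cnn3 encodes acidic calponin, the member made most widely outside muscle. Its brighter probe (chromosome 3, 121161024 to 121161083, mm9, plus strand) read 48979 in the channel labelled Smad4cKO and 78171 in the channel labelled control of the female pair. In the male pair it read 74340 in the channel labelled Smad4cKO and 47017 in the channel labelled control. The order of the labelled channels was reversed between the pairs, with red brighter than green on both arrays. The log2 ratios of this probe were -0.67 and 0.66, at least 1.5-fold in opposite directions. Its mean was -0.01 ± 0.30 (SE, n = 2, limma adjusted p = 1.00), with a 95% interval of 0.593-fold to 1.67-fold, the widest of the 6 genes. The SD of its 2 ratios was 0.94, so these ratios alone would give a larger SE. The second probe, 121160748 to 121160807, had the same pattern at a smaller size (-0.14 and 0.53). Over all genes 266 had ratios of this size in opposite directions, of which 261, or 1.23% of the genes tested, were brighter in red on each array as Cnn3 was. The number of such genes depended on the normalization, with 1440 under median centring and 180 from processed signals. Cnn3 kept opposite signs in all 12 processings and was past 1.5-fold in 9 of them, not from processed signals (-0.47 and 0.38), the deposited table or the mean of its probes. The 266 genes had a median log2 brightness of 16.1, against 11.3 over all genes, and Cnn3 lay at 15.9. Sex and dye cannot be told apart for this difference.

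**Figure D1:**
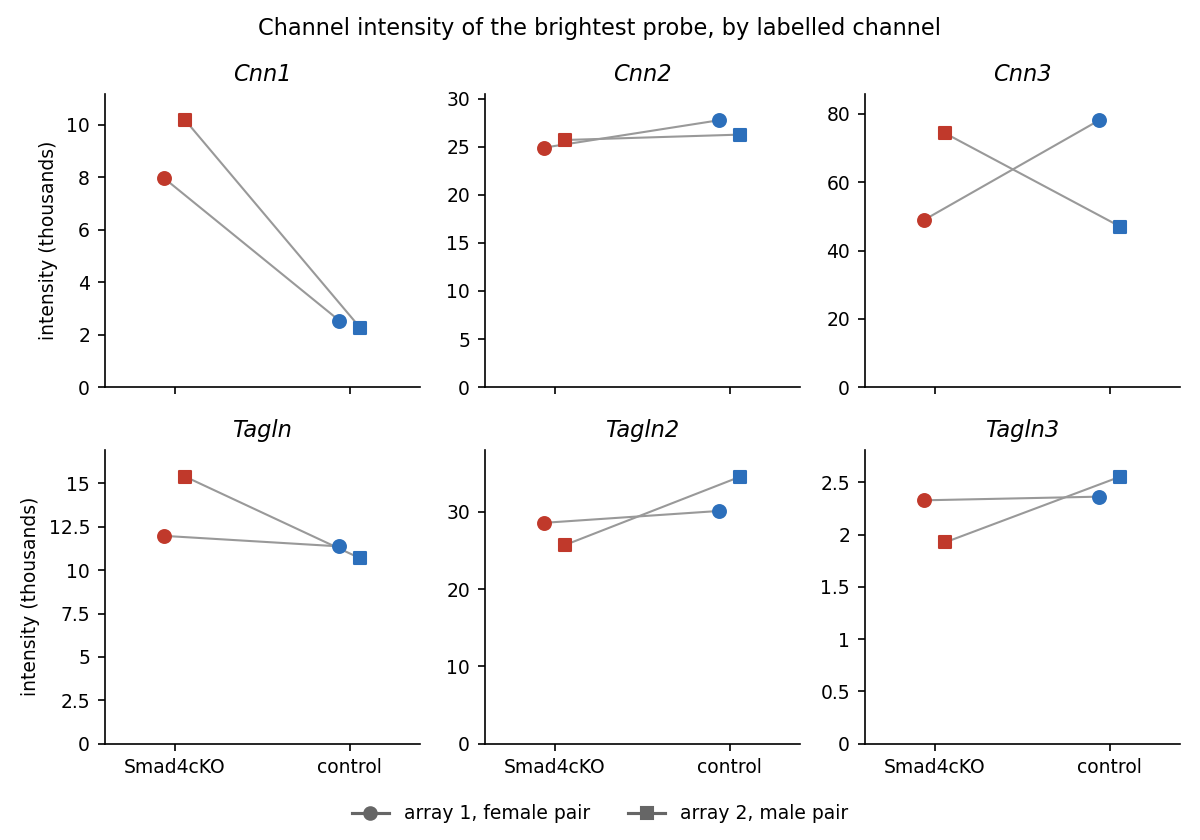
Normalized intensity (linear axis from 0) of the brightest probe of each gene in the channel labelled Smad4cKO (red, left) and the channel labelled control (blue, right); lines join the 2 channels of array 1 (circles, female pair) and of array 2 (squares, male pair). The Cnn1 readings were 7962 and 10174 in Smad4cKO channels and 2540 and 2260 in control channels, while the 2 lines of Cnn3 slope in opposite directions.

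Tagln encodes transgelin, an early and abundant marker of smooth muscle. Its probe (chromosome 9, 45738097 to 45738156, mm9, minus strand) read 11978 in the channel labelled Smad4cKO and 11373 in the channel labelled control of the female pair. In the male pair it read 15391 in the channel labelled Smad4cKO and 10682 in the channel labelled control. The channels were nearly level in the female pair and apart in the male pair. The log2 ratio of Tagln was 0.07 on array 1 and 0.53 on array 2. Its mean was 0.30 ± 0.16 (SE, n = 2, limma adjusted p = 1.00), with a 95% interval of 0.938-fold to 1.62-fold. By mean ratio it ranked 655 of 21238 genes from the brightest. The authors' deposited p-values for the single spot were 0.702 on array 1 and 0.0109 on array 2. Cnn1 exceeded Tagln by 1.57 on array 1 and by 1.64 on array 2 (log2), so the gap between these markers of the same cell type was nearly the same in both pairs.

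Tagln2 encodes transgelin 2, which is made in many cell types including leukocytes and epithelia. Its brighter probe (chromosome 1, 174436738 to 174436797, mm9, plus strand) read 28589 in the channel labelled Smad4cKO and 30128 in the channel labelled control of the female pair. In the male pair it read 25727 in the channel labelled Smad4cKO and 34565 in the channel labelled control. Its log2 ratios were -0.08 and -0.43 (mean -0.25 ± 0.15, SE, n = 2, limma adjusted p = 1.00), with a 95% interval of 0.652-fold to 1.08-fold. The probes of Tagln2 placed the difference on different arrays. The second probe, 174437450 to 174437506 and nearer the 3′ end of the transcript, gave -0.59 on array 1 and 0.04 on array 2. With the mean of both probes the ratios were -0.33 and -0.19.

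Tagln3 encodes transgelin 3 (NP25), the neuronal member of the family. Its probe (chromosome 16, 45711747 to 45711806, mm9, minus strand) had a signal over background of 32.8 to 52.9. It read 2328 in the channel labelled Smad4cKO and 2363 in the channel labelled control of the female pair. In the male pair it read 1926 in the channel labelled Smad4cKO and 2554 in the channel labelled control. The channels were level in the female pair and the Smad4cKO channel was dimmer in the male pair, as for the brighter Tagln2 probe but not for its second probe. The log2 ratios were -0.02 and -0.41 (mean -0.21 ± 0.15, SE, n = 2, limma adjusted p = 1.00), with a 95% interval of 0.665-fold to 1.12-fold.

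The Tagln2 and Tagln3 probes at bases 613 and 699 of their transcripts target related stretches. They are shown because their ratios nearly coincided in the reported fit. Sequences are those of the array, 5′ to 3′, with capitals at bases identical in the best ungapped alignment.
Tagln2: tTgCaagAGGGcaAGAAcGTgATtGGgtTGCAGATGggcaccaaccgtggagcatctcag
Tagln3: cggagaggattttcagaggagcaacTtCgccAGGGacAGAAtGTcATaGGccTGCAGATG
They matched at 24 of 36 aligned bases. The most matches among the 33 pairs of probes of different genes were 25 of 54, between the second Cnn3 probe and the Tagln3 probe. The longest run shared by any of these pairs was 8 bases, reached also between the Cnn1 probe and the second Tagln2 probe. Tagln2 minus Tagln3 was -0.05 on array 1 and -0.02 on array 2 (log2). With median centring the ratios were apart, at -0.55 and 0.08 for Tagln2 and -0.12 and -0.30 for Tagln3. Whether RNA of one gene bound the probe of the other was not tested.

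**Figure D2:**
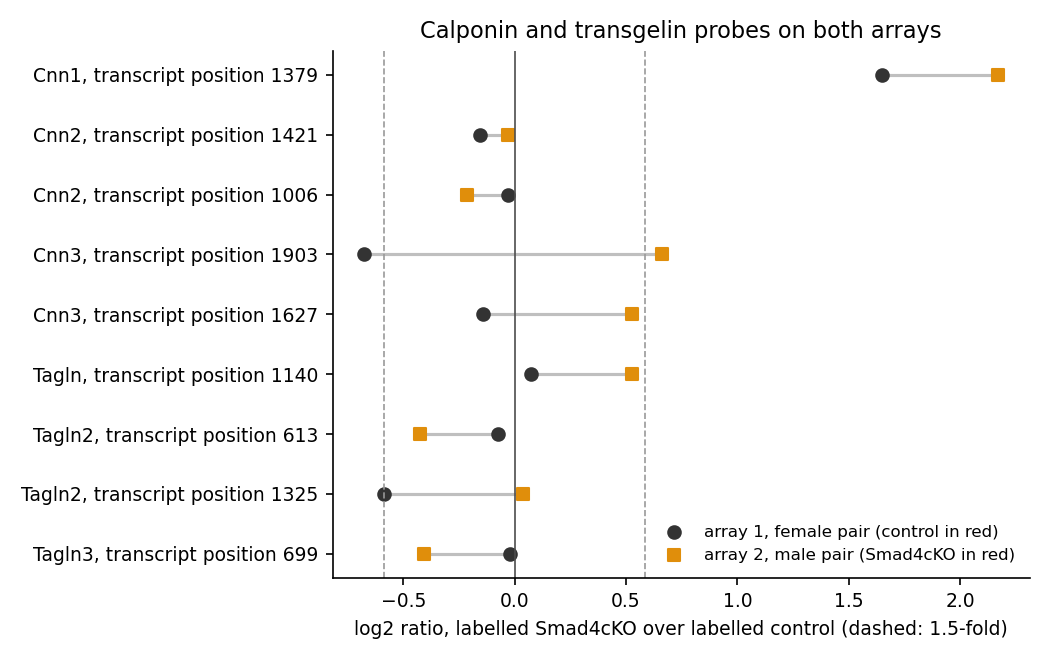
Log2 ratio, labelled Smad4cKO over labelled control, of all 9 probes (rows, with the gene and the first base of the probe in its transcript) on array 1 (circles) and array 2 (squares); dashed lines mark 1.5-fold. Only the Cnn1 probe lies beyond 1.5-fold on the same side in both pairs, at 1.65 and 2.17, and both Cnn3 probes span 0.

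Across the family, limma called 0 of 6 genes over all genes tested, and 1 (Cnn1) had an unadjusted p under 0.05, against 2.14% of all genes brighter and 2.97% dimmer at that level. Over all genes limma called 0 brighter and 1 dimmer (0.00471%). The 1.5-fold rule called 1 of 6 brighter, against 0.49% of all genes, and 0 of 6 dimmer, against 0.523%. With the fold threshold midway between 1 and 1.5 it was still 1 of 6, against 3.39% of all genes in either direction. The family's median log2 ratio was -0.05, with -0.05 on array 1 and 0.25 on array 2, against 0.0047 over all genes. Signs matched between arrays for 5 of 6 genes, 2 positive and 3 negative, against 39.7% of all genes, but for 3 of 6 from processed signals or the deposited table and for 2 of 6 with median centring. From processed signals Tagln2 gave 0.01 and -0.57 and Tagln3 0.0019 and -0.42. With median centring Cnn2 gave -0.59 and 0.43, Tagln -0.15 and 0.79, and Tagln2 -0.55 and 0.08. From the brightest to the dimmest, the mean ratios ran Cnn1, Tagln, Cnn3, Cnn2, Tagln3 and Tagln2. Cnn1 exceeded each of the other 5 by 1.57 to 2.32 on array 1 and by 1.51 to 2.60 on array 2. From Tagln downwards, neighbours in this order differed by at most 0.31 in the mean, and the 95% intervals of all 5 overlapped. These differences between members were not tested.

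Among other smooth muscle contractile and cytoskeletal genes, Cnn1 sat with the genes of the largest ratios and Tagln among those of small ones. Of 39 listed genes 36 were tested. This list and those below were chosen with earlier results of these data known, so their counts describe and do not test. The 1.5-fold rule called 7 brighter and 0 dimmer, against 0.49% and 0.523% of all genes. Limma called 0 of the 36, with 10 brighter and 1 dimmer at an unadjusted p under 0.05, against 2.14% and 2.97% of all genes. The list's median was 0.14, with 0.01 on array 1 and 0.28 on array 2. The smooth muscle myosin gene Myh11 gave 2.08 and 2.65, the enteric actin gene Actg2 1.42 and 2.08, and the smooth muscle actin gene Acta2 1.03 and 2.14. Myl9, which encodes the regulatory light chain, gave 0.28 and -0.26, and the tropomyosin gene Tpm1 gave -0.17 and 0.20, both chosen after their values were seen. Of 23 tested regulators of smooth muscle genes, the 1.5-fold rule called 1 brighter and 1 dimmer, against the same 0.49% and 0.523%. Myocd, the gene of myocardin, gave 0.90 and 1.68, and Hand2, which encodes a helix-loop-helix factor, gave -0.83 and -0.64. The median of the regulators was -0.01, with -0.20 on array 1 and 0.20 on array 2. In these RNAs of whole ureters, a different number of muscle cells and a different amount of transcript per cell cannot be told apart.

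**Figure D3:**
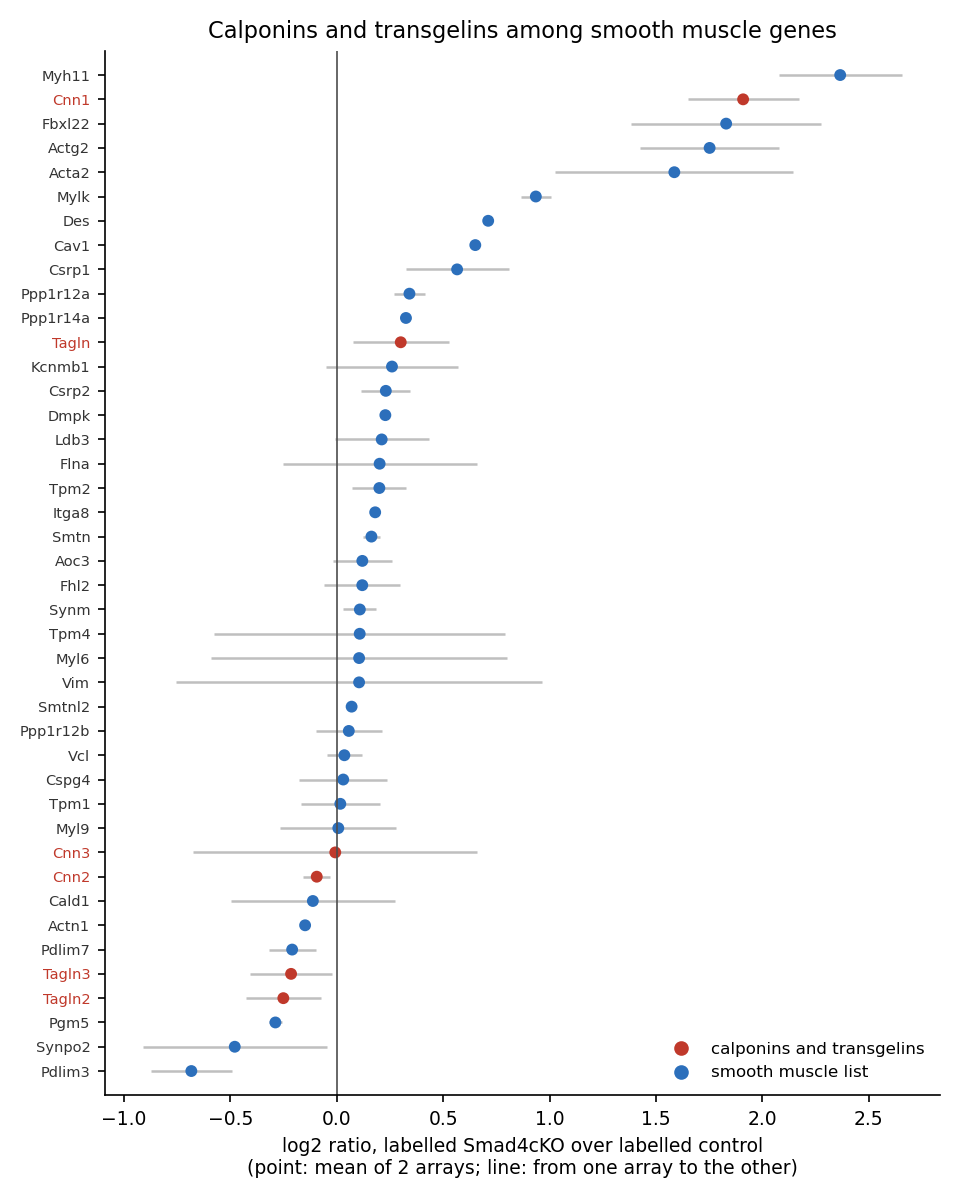
Mean log2 ratio of 2 arrays, labelled Smad4cKO over labelled control (points), and the span from one array to the other (lines), for the 6 calponins and transgelins (red) and 36 smooth muscle contractile and cytoskeletal genes (blue). Cnn1 at 1.91 lies next below Myh11 at 2.37, Tagln at 0.30 lies among genes of small ratios, and the other 4 members lie below 0.

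The calponin homology domain of the family is shared with other proteins, among them the actin-binding alpha-actinins, filamins, plastins and IQGAPs. Of 56 tested genes for proteins listed with this domain, 0 were called by the 1.5-fold rule. The shares of all genes were 0.49% brighter and 0.523% dimmer. Limma called 0, with 3 brighter and 2 dimmer at an unadjusted p under 0.05, against 2.14% and 2.97% of all genes. Their median was 0.04, with 25 of 56 genes positive and 15 negative on both arrays, against 19.9% and 19.8% of all genes. First by the naming rule were the alpha-actinin genes Actn3 (0.86 and 0.45) and Actn2 (-0.56 and -0.39).

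Genes whose pair of ratios lay nearest to that of Cnn1 were few. Only Actg2 lay within a distance of 0.25 (log2, over 2 arrays), followed by Fbxl22 at 0.28, Car3 at 0.44, Kcnk3 at 0.49 and Smad9 at 0.60. Around Tagln the same distance held 443 genes, the nearest being Ihh, LOC100039402, Gata6, Grin3a and Lrrc75b, at distances of at most 0.04. These distances rest on 2 values per gene. Cnn1 ranked 3 of 21238 genes by mean ratio, so its low number of neighbours restates the size of its ratio.

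**Figure D4:**
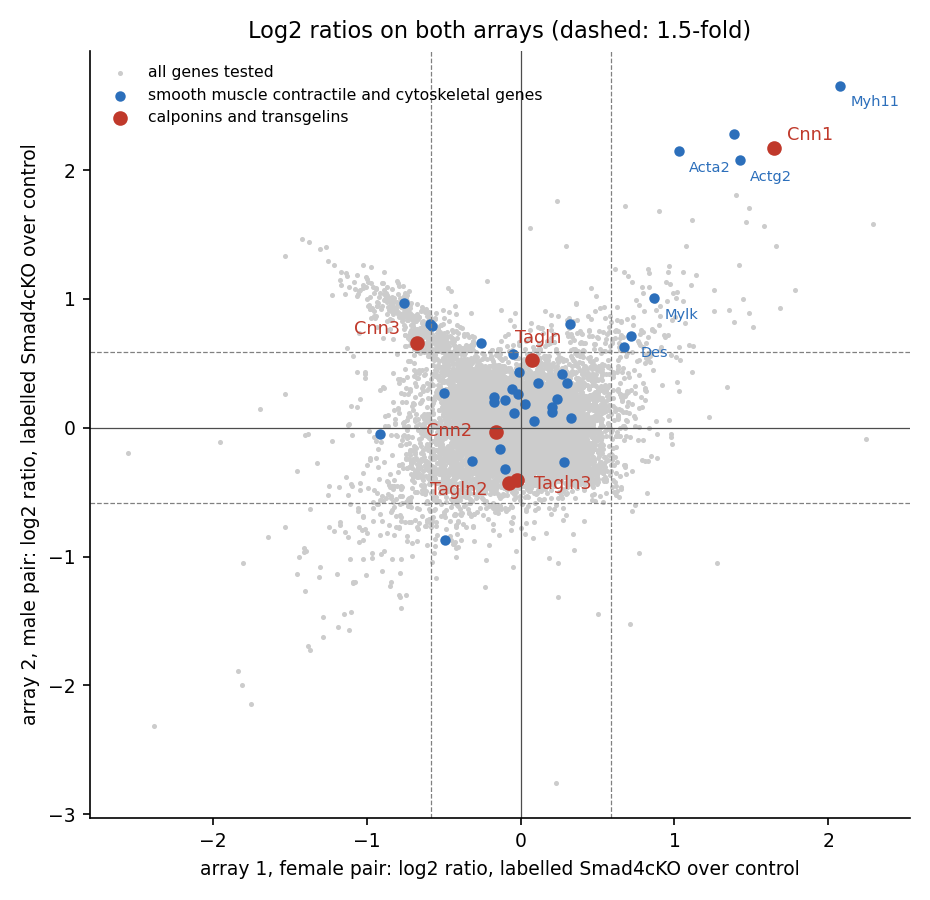
Log2 ratio on array 1 (x axis, female pair) against array 2 (y axis, male pair), labelled Smad4cKO over labelled control, for all 21238 genes tested (grey), the smooth muscle list (blue) and the calponins and transgelins (red); dashed lines mark 1.5-fold. Cnn1 lies at 1.65 and 2.17 beside Actg2, and Cnn3 lies in the band of genes with opposite signs at -0.67 and 0.66.

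Markers of other cell types of the organ were read in the same way. For comparison, 19.9% of all genes were positive and 19.8% negative in both pairs. The 1.5-fold rule called 0.49% of all genes brighter and 0.523% dimmer. Of 24 markers of neurons, glia and neural crest, 20 were negative in both pairs. Their median was -0.30 (female pair -0.41, male pair -0.19), and the 1.5-fold rule called 4 of them dimmer: Prph, Nefm, Dcx and Nefl. Tagln3 lay above the list's median in the female pair (-0.02) and below it in the male pair (-0.41), and the part of these markers in its ratio was not tested. Macrophage and leukocyte markers were positive on both arrays for 4 of 9 genes (median 0.32 on array 1 and -0.04 on array 2). The brighter Tagln2 probe was negative on both in the reported fit, and its second probe gave -0.59 on array 1 and 0.04 on array 2. The part of these markers in the ratio of Tagln2 was not tested. Endothelial markers were positive on both arrays for 6 of 10 genes (median 0.16) and urothelium genes for 6 of 18 (median 0.08), with 0 called by the 1.5-fold rule in either list or among macrophage markers. Pericyte and vascular smooth muscle markers, which bear on Cnn1 and Tagln because vessel walls express both, were negative on both arrays for 4 of 8 genes and positive for 2 (median -0.08), with 0 called. Kcnj8 gave -0.53 and -0.57, Angpt1 0.49 and 0.53, Rgs5 -0.43 and -0.67, and Heyl -0.37 and -0.20. Of 12 skeletal and cardiac muscle markers, Actc1, a sarcomeric actin gene also made in developing smooth muscle, was called brighter (0.73 and 1.13) and Myh3 dimmer (-0.71 and -0.73), with a list median of -0.10. Of 14 ureteric mesenchyme identity genes, 3 were called dimmer, Aldh1a2, Hoxd12 and Hoxd11, and the median was 0.01. What part these cell types had in the ratios of Cnn1 and Tagln was not tested.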

How the data were processed

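The members and gene lists were chosen with earlier results of these data known. The submitters' processing notes name Agilent Feature Extraction 10.7.3.1 for the scanner files. Each spot has an intensity in either channel, a log10 ratio of red over green with its error, and the p-value of that ratio, per the file headers. The authors also deposited signed folds between channels (treated as a score). Set against the processed signals they correlated at -0.990 on array 1 and -0.988 on array 2 with labelled Smad4cKO over control, with a median of 1 in each column. No source used here names the software behind them.

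From the deposited intensities, mean signals were corrected with normexp (offset 50) and normalized by loess within arrays, with control spots at weight 0 (limma 3.58.1, statmod 1.5.0, R 4.3.3, data.table version 1.17.8). The log2 ratios computed from the deposited intensities were turned to labelled Smad4cKO over control. Control spots (1377 of 44397) and outlier spots (237 on array 1, 221 on array 2) were left out. Probes were kept where at least 1 group was well above background in its channels of both arrays, and a gene was read from its brightest such probe. Ratios were tested against 0 with lmFit and eBayes, Benjamini-Hochberg adjusted over 21238 genes, with 1 residual and 4.89 prior degrees of freedom. The SE and interval therefore rest mostly on the spread pooled over genes, and the number of arrays limits the precision. The limma fit and the 1.5-fold rule were tried on simulated ratios with independent errors on the 2 arrays. That simulation did not cover normalization or differences that follow the dye. The 1.5-fold rule has no test. Symbols follow RefSeq (GRCm38.p6) by accession for 26412 of 39429 probes. The files give a probe's position in its transcript but not whether it is coding. Both arrays were read well above background for 68.3% to 70.3% of spots per channel. Named genes are the members, Smad4, Tbx18, up to 4 genes per list whose arrays shared a sign (ordered by the smaller ratio), and the 5 nearest genes to Cnn1 and Tagln. Myl9 and Tpm1 are outside this rule. Alternatives covered background correction, normalization, filters, probe choice, outlier flags, the deposited table, the variance model, the fold and each array alone.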

Additional observations from a re-analysis of the deposited data

Results flagged for a closer look

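Both probes of Cnn3 and the second probe of Tagln2 had opposite signs in the female pair (array 1) and the male pair (array 2), labelled Smad4cKO over labelled control. The brighter Cnn3 probe gave 0.66 in the male pair and -0.67 in the female pair, a difference of 1.34 (log2). The second Cnn3 probe gave 0.53 and -0.14, a difference of 0.67, and the second Tagln2 probe 0.04 and -0.59, a difference of 0.62. All 3 were brighter in red than in green on both arrays. With 1 array per sex the differences were not tested, and sex and dye orientation cannot be told apart.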

How the results depend on the processing

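Cnn1 stayed positive and past the 1.5-fold rule in all 12 processings, between 1.91 and 1.97, but limma's call on it did not hold still. Its adjusted p ranged from 4.74e-23 to 1.00. It passed from processed signals (1.96, adjusted p = 0.000270), with normexp offset 10 (1.93, 0.0138), from the deposited value table (1.97, 0.00412) and with limma's robust, intensity-trended variance prior (1.91, 4.74e-23), which made 1 member called in each, against 0 otherwise. With the robust, intensity-trended prior the 2 ratios of Cnn1 were those of the reported fit, and the SE was 0.14 against 0.17. The cause was not tested. Over all genes limma called 0 brighter and 1 dimmer in the reported fit, against 143 and 160, 35 and 31, 71 and 77, and 298 and 407 in those 4 processings. The other 5 members were called in 0 of the 12, with Tagln between 0.30 and 0.32, Cnn2 between -0.14 and -0.08, Tagln2 between -0.28 and -0.24 and Tagln3 between -0.22 and -0.20. Cnn3, at -0.01 in the reported fit, turned to 0.092 with the mean of its probes. The calponin homology list had 1 gene called, dimmer, from processed signals and from the deposited table, against 0 in the reported fit. The dimmer shares of all genes in those processings were 0.937% and 0.866%. With the fold threshold midway between 1 and 1.5 this list had 4 of 56 called, against 3.39% of all genes in either direction. The smooth muscle list had 4 of 36 genes called at 2-fold, all brighter, against 7 at 1.5-fold. Of all genes 0.0989% were at least 2-fold brighter on both arrays.

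On single arrays Cnn1 ranged from 1.65 to 2.17, Tagln from 0.07 to 0.53, Cnn2 from -0.16 to -0.03, Tagln2 from -0.43 to -0.08, Tagln3 from -0.41 to -0.02 and Cnn3 from -0.67 to 0.66. The members past 1.5-fold on a single array numbered 2 on either, the smooth muscle genes 10 to 13 and the calponin homology genes 1 to 2, where 4.43% of all genes passed on array 1 and 4.13% on array 2. No paired analysis was possible because the ratio on each array already is the paired comparison of its 2 RNAs, which leaves no further block to fit.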
